A study of Danaus plexippus with 48 samples.

Results

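In brains of the monarch butterfly, Danaus plexippus, 57 of 15130 genes followed a daily course that was highest between morning and midday. They were chosen from their measured values. The deposited expression values were in FPKM, fragments per kilobase of transcript and per 1e6 mapped fragments, a unit that sets levels per transcript length. Each value was taken as log2(FPKM + 1), the gene's mean in its group of butterflies was subtracted, and a single cosine with a period of 24 h was fitted over 46 libraries. A member had a mean of at least 1 FPKM over all 48 libraries, an R2 (share of the variance the cosine takes up) of at least 0.3, and a fitted peak from ZT3 to before ZT9. ZT is zeitgeber time, hours after lights-on. Of 11024 genes with a mean of 1 FPKM or more, 273 reached that R2 at any hour, and 99 of them peaked from ZT21 to before ZT3, 89 from ZT9 to before ZT15 and 28 from ZT15 to before ZT21.

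Animals keep daily time with a circadian clock, a feedback loop in which clock proteins repress their own genes, and this clock is set by light. The timing of many transcripts follows it, while others respond to light, feeding or activity directly. In the monarch, day length also acts as a seasonal cue: long days accompany the reproductive summer state, and the shortening days of autumn accompany the migratory state, in which the butterflies fly south with reproduction halted. The identifiers of the files were not paired with gene names, and the RefSeq gene table of assembly MEX_DaPlex matched 0 of 15130, so the members are given by identifier and scaffold, without names, functions or sequences. Positions are copied from the deposited tables; their genome build is not stated in the labels, nor is whether starts count from 0 or 1.

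All butterflies were wild-type. LP (long photoperiod) and SP (short photoperiod) butterflies were raised in the laboratory from eggs of crossed wild-type parents, LP under a light phase of 15 h and a dark phase of 9 h, SP under a light phase of 10 h and a dark phase of 14 h. Migrant butterflies were caught in the wild during the autumn migration and held under a light phase of 11 h and a dark phase of 13 h. Every group was kept at 21 degrees C and 70% humidity, with at least 7 days in its light cycle before dissection, and the adults were fed honey solution; adult age is not given, and the origin and earlier life of the wild-caught animals were not controlled. Each library was a pool of 3 brains without the pigmented photoreceptor layer of the retina, giving 16 libraries in every group. Times began at ZT1 and followed every 3 h until ZT22, 8 in all with 2 pools each. The pools of replicate 1 were labelled female in LP and Migrant and male in SP. ZT10 is the hour of lights-off in SP.

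Reads in genes ranged from 7.30 to 10.6 M per library in LP (M, 1e6 reads), from 5.47 to 9.46 M in SP and from 5.75 to 7.71 M in Migrant. Migrant libraries were made with the NEBNext Ultra Directional kit and the others with the TruSeq Stranded kit, and a difference that involves Migrant cannot be told apart from one of kit or of wild origin. Migrant ZT22 replicate 1 and ZT10 replicate 2 were left out by the rule that chose the members, so each of those times had 1 Migrant library, and Migrant values below rest on 14 libraries. Correlations between the 2 libraries of a time, over the genes, were 0.969 to 0.980 in LP, 0.969 to 0.974 in Migrant and 0.918 to 0.976 in SP. The labels do not say whether the pools of a time were independent collections beyond being separate samples, so p-values measure the spread between these pools. The 2 pools of a time carry different sex labels, so that spread includes any difference between the sexes. In the test of rhythm it also includes departures from the cosine. In pools of whole brains, fewer cells of a type and less RNA per cell cannot be told apart.

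The members' mean level had a median of 61.0 FPKM and ran from 2.74 to 5451 FPKM, beside a median of 20.4 over all genes with at least 1 FPKM. They rested on a median of 946 reads per library, beside 234 over those genes. None averaged fewer than 10 reads over the libraries of any group, and single libraries can lie lower. The median gene span was 5225 bases against 3444. Level and R2 were part of the choice of members, so these values are a description without a test.

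Most members had shallow cycles around a common course. R2 ran from 0.3003 to 0.839 with a median of 0.428, and was 0.6 or more for 15 members and below 0.4 for 26. The amplitude, the height of the fitted cosine above its mean on the log2 scale, had a median of 0.18 and ran from 0.10 to 0.94, which makes the fitted peak 1.29-fold above the trough for the median member, 1.15-fold for the shallowest and 3.67-fold for the steepest. It lay under 0.2 for 31 members and reached 0.5 for 6. The peak of the fit over all groups came before ZT6 in 36 members and from ZT6 on in 21, and 18 peaked before ZT4. These values chose the members and are a description without a test.

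Near the limits, the rule separated genes with nearly equal values. DPOGS214160 and DPOGS205833 entered with an R2 of 0.3003 and 0.3069, and DPOGS215460 and DPOGS202029 stayed out with 0.2999 each. DPOGS215693 peaked at ZT3.03 and DPOGS213925 at ZT3.39, while DPOGS202088 at ZT2.98 and DPOGS202077 at ZT2.97 fell to the window around dawn. At the late end DPOGS215703 at ZT8.85 and DPOGS214160 at ZT8.80 were inside, and DPOGS209745 at ZT9.13 and DPOGS213804 at ZT9.38 outside. The lowest-expressed members were DPOGS200764 at 2.74 FPKM and DPOGS200771 at 3.27 FPKM, and the nearest genes below the level limit were DPOGS205928 at 0.781 and DPOGS213902 at 0.417 FPKM.

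The median member was highest at ZT7 and lowest at ZT16 in every group, and it was higher at ZT22 than at ZT16. In LP the median member stood 0.07 above its group mean on the log2 scale at ZT1, 0.08 at ZT4, 0.18 at ZT7 and 0.10 at ZT10, and below the mean by -0.02 at ZT13, -0.16 at ZT16, -0.12 at ZT19 and -0.10 at ZT22. ZT13 is still in the light in LP, and there 25 of 57 members were above their mean, down from 51 at ZT10. SP had a plateau at ZT4 and ZT7, with medians of 0.17 and 0.17, then 0.03 at ZT10, -0.04 at ZT13, -0.18 at ZT16, -0.11 at ZT19 and -0.07 at ZT22. Migrant had 0.11 at ZT1, 0.16 at ZT4 and 0.21 at ZT7, where 56 members stood above their mean, and reached 0.00 at ZT10, -0.14 at ZT13, -0.22 at ZT16, -0.16 at ZT19 and -0.05 at ZT22. All 57 were above their Migrant mean at ZT4, and 1 was at ZT16.

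**Figure D1:**
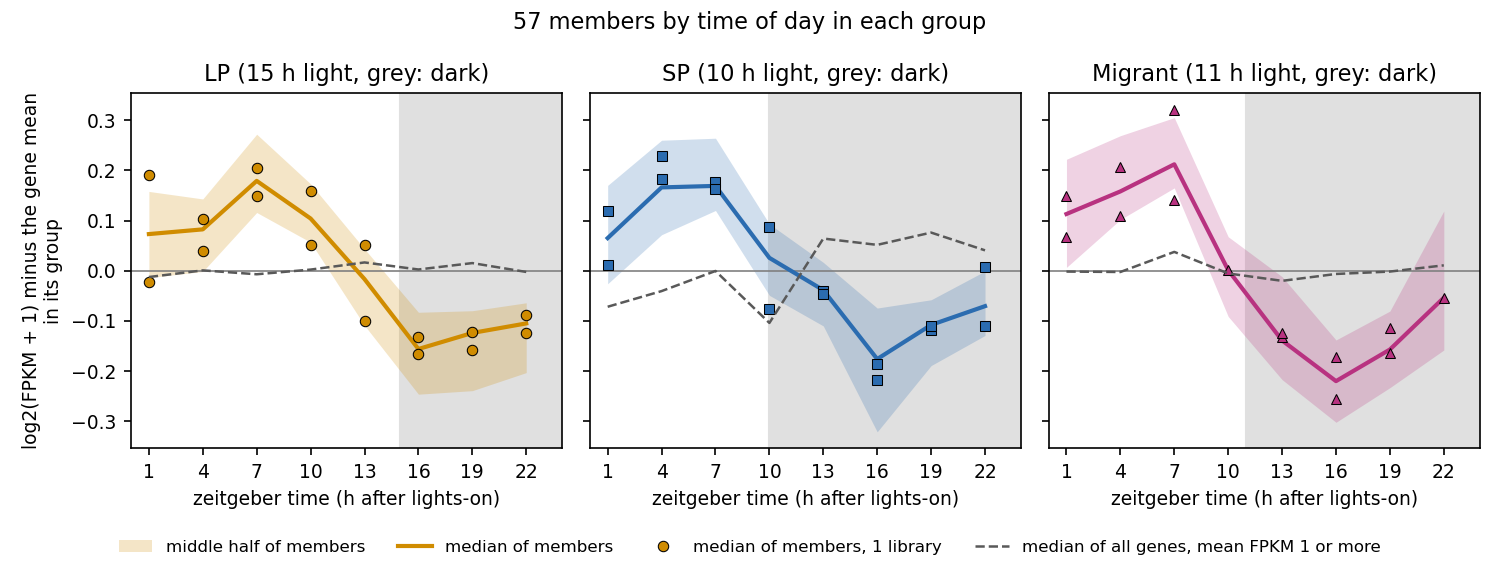
Daily course of the 57 members in LP, SP and Migrant: log2(FPKM + 1) minus the gene's mean in its group (y axis) against zeitgeber time in hours (x axis), with the median of members as a line over the libraries of a time, the middle 50% of members as a band, the median in each library as a point and the median of all genes averaging at least 1 FPKM as a dashed line. The medians are highest at ZT7 (0.18 in LP, 0.17 in SP and 0.21 in Migrant) and lowest at ZT16, and the dashed line moves by over 0.1 in SP alone, where it is lowest, at -0.10, at ZT10.

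The 2 libraries of a time did not always match. In LP at ZT1 the members' median was 0.19 in replicate 1 and -0.02 in replicate 2, with 50 and 25 members above their mean. At SP ZT10, the hour of lights-off, it was -0.08 and 0.09, and at Migrant ZT7 it was 0.14 and 0.32. The highest single time, from the mean of its libraries, was ZT7 for 37 members in LP, ZT4 for 25 and ZT7 for 19 in SP, and ZT7 for 29, ZT1 for 15 and ZT4 for 12 in Migrant. Troughs were more alike, with ZT16 lowest for 25 members in LP, 30 in SP and 30 in Migrant.

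In SP the median of all genes also varied with the hour. The median of all genes with a mean of 1 FPKM or more was -0.07 at ZT1, -0.10 at ZT10, 0.06 at ZT13 and 0.08 at ZT19 in SP, and stayed between -0.02 and 0.04 at all times in LP and Migrant. It was lowest in replicate 1 at ZT1, ZT4 and ZT10, with -0.26, -0.20 and -0.28, beside 0.10, 0.13 and 0.07 in replicate 2. Its part in the members' SP course was not tested beyond the scaled values given with the amplitudes.

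DPOGS210128 (scaffold DPSCF300017, 1703686 to 1720510) had the highest R2, 0.839. In LP its FPKM was lowest at 51.5 (ZT19), had a median of 77.2 and was highest at 121 (ZT7). The SP libraries ran from 47.2 at ZT16 through a median of 84.2 to 113 at ZT7, and the Migrant libraries from 31.6 at ZT13 through 47.3 to 67.0 at ZT7. LP and SP overlapped, and the highest Migrant library was below the medians of both. The fitted amplitudes were 0.50 ± 0.05 for LP, 0.51 ± 0.04 for SP and 0.46 ± 0.05 for Migrant (SE of the fit, n = 16, 16 and 14 libraries). The fitted peak stood at ZT5.33 ± 0.41 in LP, ZT4.10 ± 0.32 in SP and ZT2.90 ± 0.47 in Migrant.

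DPOGS202237 (DPSCF300149, 612778 to 614075) peaked late in the window, at ZT8.50, with an R2 of 0.784. In LP the mean of the libraries of a time was 172 FPKM at ZT1 and 168 at ZT4, then 302 at ZT7 and 287 at ZT10, and 159 at ZT22. In LP the step fell between ZT4 and ZT7, and the libraries of these times did not overlap. SP climbed already at ZT4, from 220 at ZT1 to 285 and then 461 at ZT7. The Migrant means were 139, 182 and 235 FPKM at these times. Amplitudes were 0.44 ± 0.07 in LP, 0.54 ± 0.07 in SP and 0.47 ± 0.05 in Migrant, and peaks ZT8.99 ± 0.65, ZT8.89 ± 0.48 and ZT7.53 ± 0.36.

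The 3 steepest members lay close together on 1 scaffold. DPOGS213925 (DPSCF300218, 286505 to 288396), DPOGS213901 (295632 to 297523) and DPOGS213900 (306222 to 307966) had amplitudes of 0.93, 0.94 and 0.94, peaks at ZT3.39, ZT3.47 and ZT3.39, and R2 of 0.813, 0.780 and 0.824. DPOGS213900 ran in LP from 4.78 FPKM at ZT16 through a median of 10.5 to 31.2 at ZT1, in SP from 5.87 at ZT16 through 16.0 to 43.1 at ZT1, and in Migrant from 6.78 at ZT16 through 18.03 to 40.8 at ZT1. The groups overlapped, with the lowest maximum in LP. Amplitudes of DPOGS213900 were 1.00 ± 0.12 in LP, 1.01 ± 0.12 in SP and 0.87 ± 0.09 in Migrant, and its peak stood at ZT4.32 ± 0.44 in LP, ZT3.06 ± 0.46 in SP and ZT2.51 ± 0.46 in Migrant. The differences of its rhythm between groups were not called (limma adjusted p = 0.944 for SP against LP, 1 for Migrant against LP and 0.904 for Migrant against SP).

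The courses of these 3 genes were almost the same series of values. Across the 46 libraries the Pearson correlation of log2(FPKM + 1) was 0.987 for DPOGS213901 with DPOGS213900, 0.982 for DPOGS213925 with DPOGS213900 and 0.982 for DPOGS213925 with DPOGS213901. The points share libraries, groups and hours. DPOGS213925 and DPOGS213901 both span 1891 bases and DPOGS213900 spans 1744. Reads of 50 bases from near-identical copies can be divided among them by the authors' software, no sequence was at hand to compare the genes, and the values of each gene alone are therefore uncertain. In SP the 2 pools differed at ZT1 and ZT4 in all 3 genes: DPOGS213901 had 61.3 and 22.4 FPKM at ZT1 and 49.6 and 24.5 at ZT4, with replicate 1 the higher both times.

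The next gene on the scaffold, DPOGS213899 (314077 to 316232), was also a member, with a shallower cycle at a far higher level. Its mean was 1385 FPKM ± 125 for LP, 2022 ± 259 for SP and 1082 ± 117 for Migrant (SD over the libraries, n = 16, 16 and 14, the daily change included). The amplitude stood at 0.15 ± 0.03 for LP, 0.13 ± 0.06 in SP and 0.17 ± 0.03 in Migrant, and its pooled peak ZT5.85. Between it and the 3 steep genes the correlation was 0.68 to 0.70 over the 46 libraries. Not every gene nearby cycled in the window: of the 11 genes between 248646 and 351814, the others that passed an R2 of 0.3 were DPOGS213926, peaking at ZT2.76, and DPOGS213902, which overlaps DPOGS213925 and had a mean of 0.417 FPKM on 7.49 reads per library. DPOGS213926 was named after its values were seen.

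**Figure D2:**
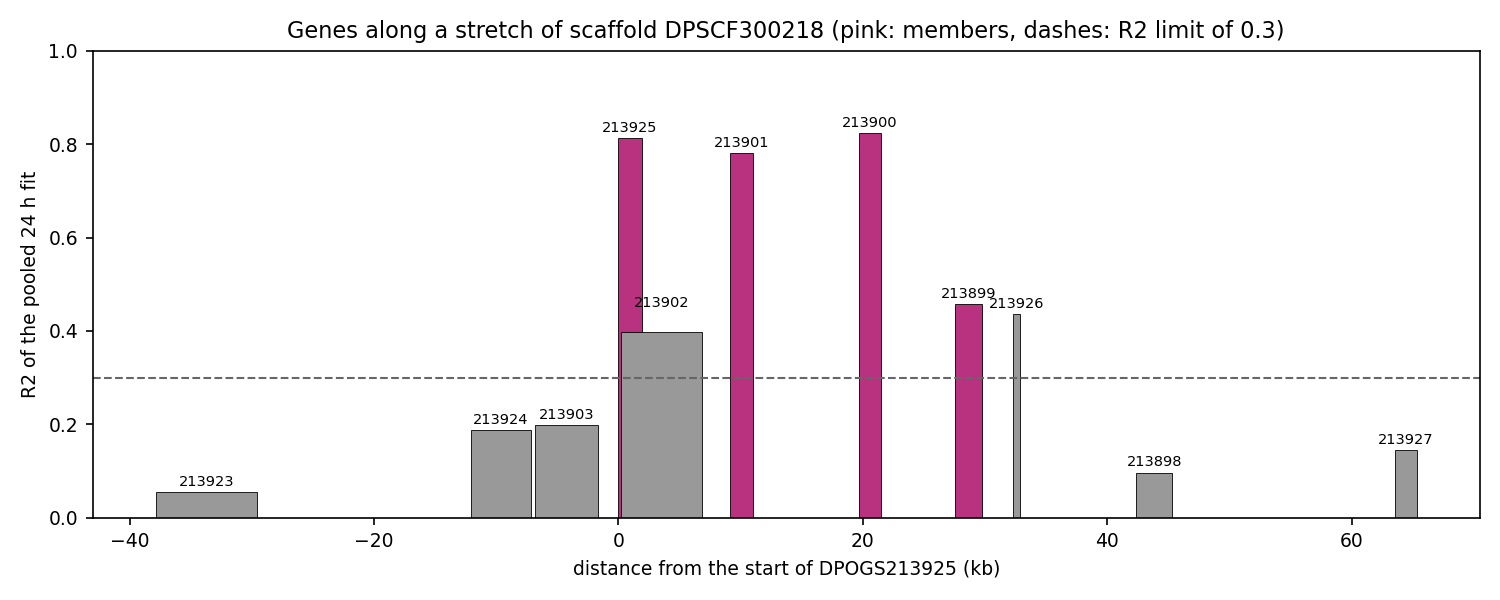
R2 of the fit over all groups (y axis, 0 to 1) for the genes along a stretch of scaffold DPSCF300218, each bar as wide as the gene, against the distance in kb from the start of DPOGS213925 (x axis); pink bars are members and the dashed line is the limit of 0.3. The bars of DPOGS213925, DPOGS213901 and DPOGS213900 reach 0.813, 0.780 and 0.824, and DPOGS213899 reaches 0.458.

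Elsewhere the members were scattered. With DPSCF300218 included, the members lay on 46 scaffolds, and 6 scaffolds held 2 or more, 17 members in all. The members with the lowest mean levels shared DPSCF300318, where DPOGS200771 (96007 to 104127) peaked at ZT3.89 and DPOGS200764 (121251 to 128569) at ZT3.77. DPOGS213778 and DPOGS213780 on DPSCF300212, named after their values were seen, peaked at ZT5.32 and ZT7.50. Adjacent members occurred in 2 pairs, both on DPSCF300218.

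DPOGS215439 (DPSCF300298, 92060 to 92604) had the largest amplitude after the 3 neighbours, 0.77. Its LP libraries ran from 10.4 FPKM at ZT16 through a median of 18.6 to 41.1 at ZT7, its SP libraries from 19.7 at ZT16 through 36.2 to 85.6 at ZT1, and its Migrant libraries from 29.7 at ZT16 through 55.4 to 185 at ZT7. The ranges overlapped, but the lowest library of each group was at ZT16 and the order was the same at the bottom, in the middle and at the top. The amplitude did not follow the level, at 0.80 ± 0.10 in LP, 0.80 ± 0.14 in SP and 0.77 ± 0.24 in Migrant. The Migrant error was the widest, and the pools of a time differed there, with 185 and 44.6 FPKM at ZT7 and 122 and 46.2 at ZT4.

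**Figure D3:**
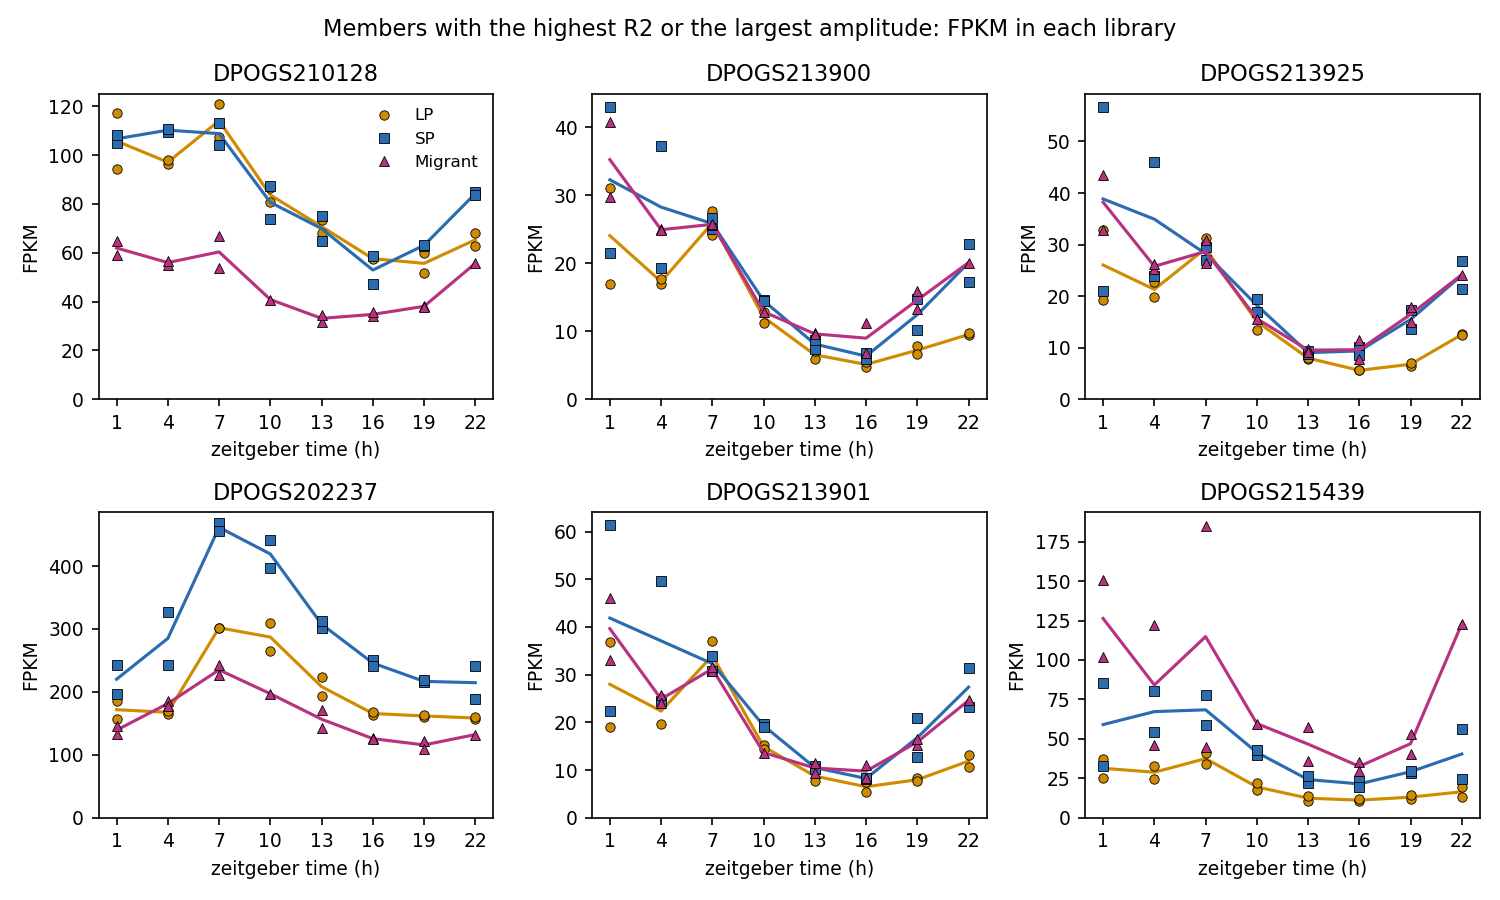
FPKM in each library (y axis, from 0) against zeitgeber time in hours (x axis) for the 6 members with the highest R2 or the largest amplitude, with points for libraries and lines for the mean of a time in LP, SP and Migrant. DPOGS210128 has a lower Migrant level, DPOGS215439 a higher one (up to 185 FPKM), and the 3 genes of scaffold DPSCF300218 overlap between the groups, with a lower highest library in LP than in SP and Migrant.

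The median amplitude of the members was 0.175 for LP, 0.19 for SP and 0.24 for Migrant, beside 0.06, 0.13 and 0.09 over all genes with a mean of 1 FPKM or more. The R2 limit was applied to these libraries, so larger amplitudes than those of all genes follow from the choice. Rhythmic genes of the windows from ZT21, ZT9 and ZT15 had 0.246, 0.272 and 0.182 in LP. They had 0.305, 0.309 and 0.278 in SP and 0.249, 0.257 and 0.193 in Migrant. For the members, fits to the pools of replicate 1 alone gave 0.18, 0.19 and 0.20, and to those of replicate 2 alone 0.20, 0.21 and 0.28. The SD between the 2 fits was 0.02, 0.01 and 0.06. The Migrant median stood above those of LP and SP by more than this spread in LP and SP, but not by more than the gap between the Migrant fits. These rest on 7 libraries each and lack ZT22 or ZT10. The fitted amplitude was largest in Migrant for 32 members, in SP for 15 and in LP for 10.

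That order depended on the scaling of the libraries. With median-ratio scaling, which sets the libraries to a common median ratio over genes, SP had the largest amplitude for 34 members, Migrant for 16 and LP for 7, and the medians were 0.175 for LP, 0.25 for SP and 0.23 for Migrant. Quantile normalization gave 15 in LP, 15 in SP and 27 in Migrant. The fitted peak stood at least 2-fold above the trough for 5 members in LP, 8 in SP and 7 in Migrant, and less than 1.5-fold for 47, 42 and 39. The median own fit took up an R2 of 0.567 for LP, 0.471 for SP and 0.655 for Migrant, and the scatter around it, the residual SD on the log2 scale, was 0.12, 0.17 and 0.13.

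With both replicates together, the median peak came latest in LP and earliest in Migrant. The median fitted peak came at ZT6.33 for LP, with the middle 50% of members between ZT5.32 and ZT7.90, ZT5.46 in SP (ZT3.96 to ZT7.49) and ZT4.35 in Migrant (ZT3.18 to ZT6.52). The middle of the light phase fell at ZT7.5 in LP, ZT5 in SP and ZT5.5 in Migrant, so that the median peak preceded it by 1.17 h in LP, followed it by 0.462 h in SP and preceded it by 1.15 h in Migrant. All 57 fitted peaks lay in the light in LP and Migrant, and 56 did in SP, where DPOGS214160 peaked at ZT10.6 ± 2.06 (SE). The rule used these libraries and admitted only pooled peaks from ZT3 to before ZT9, hours that are light in every group. The counts in the light were thus nearly fixed by the choice of members, and the median peaks are a description without a test. The error of 1 member's peak was about 1 h, with medians of 0.925 h for LP, 1.12 h for SP and 0.868 h for Migrant. Fits to replicate 1 alone put the median peak at ZT5.28 in LP, ZT4.31 in SP and ZT4.67 in Migrant. Replicate 2 alone gave ZT7.18, ZT6.15 and ZT4.89, with an SD between the 2 fits of 1.34, 1.3 and 0.15 h. The LP and SP medians thus differed by less than this SD in either group.

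Taken gene by gene, the peak came earlier in SP than in LP by a median of 1.18 h, with 42 members earlier and 15 later. In Migrant it came earlier than in LP by a median of 1.96 h, with 46 earlier and 11 later, and earlier than in SP by 0.720 h, with 42 earlier and 15 later. The comparisons share their LP, SP or Migrant libraries and are not independent of each other. Among the 24 members whose amplitude was at least 3 SE in every group, the medians were -1.20, -2.02 and -0.617 h, with 20, 23 and 21 members earlier.

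The replicates differed on the last of these. In replicate 1 alone the median differences were -1.29 h from LP to SP, -0.988 h from LP to Migrant and 0.106 h from SP to Migrant, with 27 members earlier and 30 later in the latter. In replicate 2 alone they were -0.925, -2.59 and -1.54 h. The direction against LP was thus the same in both replicate numbers, and the direction between Migrant and SP was not. The replicates of every group also differ in labelled sex, in the opposite order in SP. Within a replicate number SP is thus set against pools of the other labelled sex. Matched by labelled sex, the direction of SP against LP was not the same. The median peak of female pools was ZT5.28 in LP and ZT6.15 in SP, and that of male pools ZT7.18 and ZT4.31. Migrant was earlier than LP in both, at ZT4.67 in female and ZT4.89 in male pools. With median-ratio scaling the medians were -1.16, -2.06 and -0.732 h, and with all 48 libraries -1.18, -2.47 and -1.46 h.

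**Figure D4:**
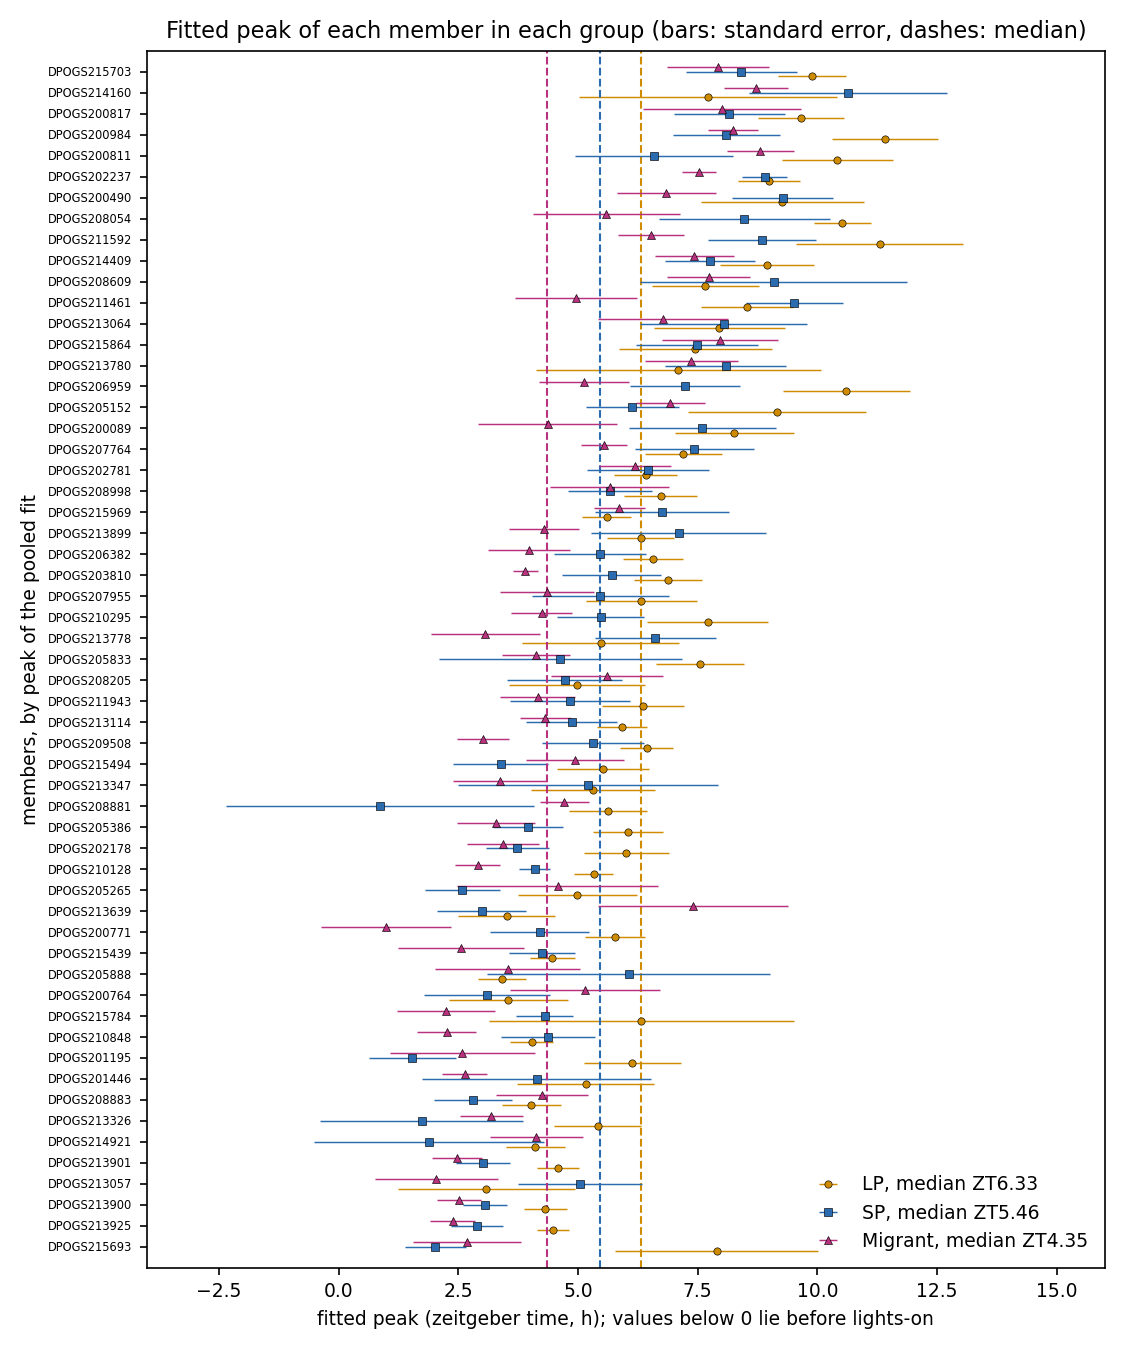
Fitted peak in hours of zeitgeber time (x axis, values below 0 lie before lights-on) of each of the 57 members (y axis, ordered by the peak of the fit over all groups) in LP, SP and Migrant, with bars for 1 SE and dashed lines at the medians of ZT6.33, ZT5.46 and ZT4.35. The LP points lie to the right of the Migrant points for 46 of 57 members, and many bars overlap.

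The median peak came earlier in SP and Migrant than in LP both for members with early and for members with late pooled peaks, and the difference between these sets was not tested. The 36 that peaked before ZT6 had median peaks of ZT5.49 in LP, ZT4.22 in SP and ZT3.48 in Migrant, and the 21 that peaked from ZT6 on had ZT8.94, ZT8.09 and ZT6.92. Against LP, the early members came earlier by a median of 1.22 h in SP and 2.05 h in Migrant, and the late ones by 0.669 and 1.65 h. In SP 30 of the early members peaked earlier than in LP and 6 later, while 12 of the late ones peaked earlier and 9 later. Rhythmic genes of the other hours were also earlier than in LP, by 2.23, 1.10 and 1.99 h in SP and by 1.57, 2.29 and 1.95 h in Migrant for the windows from ZT21, ZT9 and ZT15, so an earlier peak was not particular to the genes of morning and midday.

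The difference of rhythm between groups was tested across 11630 genes with a mean of 0.5 FPKM or more (limma, F-test of the cosine and sine terms, Benjamini-Hochberg adjustment). A single course fitted to all groups chose the members, which favours genes that are alike in the groups. At an adjusted p under 0.05, 0 of the 57 members were called between SP and LP, 0 between Migrant and LP and 0 between Migrant and SP, where 0%, 0.0258% and 0.0344% of all tested genes were called. At an unadjusted p under 0.05 there were 4, 17 and 4 members, or 7.02%, 29.8% and 7.02% of them, beside 5.53%, 3.65% and 6.23% of all tested genes. Rhythmic genes of the windows from ZT21, ZT9 and ZT15 had 20.2%, 38.2% and 28.6% for Migrant versus LP. The members' share there was thus not particular to them. For SP versus LP these windows had 31.3%, 18% and 21.4%, and for Migrant versus SP 10.1%, 31.5% and 17.9%. At an adjusted p under 0.05 the test by voom on recovered reads also called 0, 0 and 0 members, where it called 0.0086%, 0.086% and 0.0258% of all tested genes. After quantile normalization limma called 0, 2 and 0 members, where 0%, 0.155% and 0.0172% of all tested genes were called.

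The members with the smallest p give the size of differences that were not called as deposited. For Migrant versus LP it was DPOGS210128, whose fitted peaks differed by -2.42 ± 0.62 h (SE, limma unadjusted p = 0.0012, adjusted p = 0.466). After quantile normalization it was 1 of the 2 members called (limma adjusted p = 0.0495). Next was DPOGS214160 (DPSCF300014, 420597 to 428804), with a nearly flat course in LP (amplitude 0.05 ± 0.03) and SP (0.07 ± 0.04) against 0.29 ± 0.06 for Migrant (limma adjusted p = 0.540 against LP and 0.576 against SP). Its Migrant means went from 82.1 FPKM at ZT1 to 120 at ZT4 and 75.2 at ZT22, and its LP means stayed between 84.4 and 97.3. For Migrant versus SP, DPOGS208881 (DPSCF300009, 1265046 to 1267380) followed, whose amplitude was 0.07 ± 0.06 in SP but 0.21 ± 0.02 in Migrant (limma adjusted p = 0.724).

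For SP versus LP the smallest p belonged to DPOGS215693 (DPSCF300041, 473257 to 505478), which peaked at ZT7.89 ± 2.12 in LP and ZT2.02 ± 0.63 in SP (limma adjusted p = 0.537). Its LP amplitude was 0.06 ± 0.03, so the LP peak is poorly placed, and its SP amplitude 0.19 ± 0.03. DPOGS201195 (DPSCF300262, 143037 to 158477) peaked at ZT6.14 ± 1.01 in LP and ZT1.54 ± 0.91 in SP with amplitudes of 0.27 and 0.28 (limma adjusted p = 0.555). In Migrant its cycle was shallow, with an amplitude of 0.07 ± 0.03 and libraries between 12.4 and 15.9 FPKM.

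The rule subtracted each gene's group means and used level only as a limit of 1 FPKM on the mean over the libraries. The mean level was compared between the groups over the 8 times (limma, 1 mean per group and time). SP differed from LP in 44 of 57 members, 32 higher and 12 lower, where 82.4% of all tested genes were called, 40.7% higher and 41.7% lower. The share of members called, 77.2%, was near that background, and the split leaned to higher values in the values as deposited. The median log2 fold change of the members was 0.23, beside -0.0019 over all tested genes. Among the called members the same direction held at all 8 times for 35, 2 rose by 2-fold or more and 0 fell that far. The shares of all tested genes are not given here, so these counts are no result about the members. In replicate 1 alone the members' median log2 fold change was 0.27 with 38 higher, beside -0.08 and 47.1% higher over all tested genes. In replicate 2 alone it was 0.18 with 41 higher, beside 0.06 and 53%. Within a replicate number SP is set against LP pools of the other labelled sex. After median-ratio scaling 46 members were called, 34 higher and 12 lower, where 83.6% of all tested genes were called, 42.1% higher and 41.5% lower. Under both scalings 32 members were higher and 12 lower, beside 40.6% and 41.4% of all tested genes. With quantile normalization the members' median was 0.19 beside 0.19 over all tested genes. By voom on recovered reads it was 0.115 beside -0.11 over all tested genes.

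DPOGS208998 (DPSCF300009, 2043154 to 2047053) rose most from LP to SP. Its LP libraries ran from 441 FPKM through a median of 573 to 911, and its SP libraries from 939 through 1421 to 1768. Every SP library was above every LP library, and the Migrant libraries, at 387 to 616, lay at the lower end of LP. Its log2 fold change on the FPKM + 1 scale was 1.17 ± 0.06 (SE, limma adjusted p = 2.93e-14). Its peak came at ZT6.72 ± 0.76 in LP and ZT5.67 ± 0.88 in SP.

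DPOGS205265 (DPSCF300021, 1265315 to 1265517), the most abundant member, followed with LP libraries from 2869 through 3953 to 6565 FPKM and SP libraries from 5882 through 8678 to 12248. The groups overlapped at their ends. The log2 fold change was 1.03 ± 0.09 (SE, limma adjusted p = 1.76e-10), but after quantile normalization it was 0.07 (limma adjusted p = 0.478). The gene model spans 202 bases, and FPKM of so short a gene depends strongly on the length the authors' software assigned.

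Among members lower in SP, DPOGS205833 (DPSCF300081, 112018 to 124024) had 27.1 to 38.4 FPKM in LP, with a median of 32.8, and 13.2 to 26.1 in SP, with a median of 16.0. The groups did not overlap, and the log2 fold change was -0.89 ± 0.09 (SE, limma adjusted p = 1.46e-09). DPOGS200811 (DPSCF300249, 2449 to 8315) spread over 3.29 to 10.7 FPKM with LP and 0.865 to 7.39 with SP, with medians of 5.78 and 3.36 and much overlap. The difference of -0.64 ± 0.12 on the log2 scale (SE, limma adjusted p = 3.55e-05) became -0.10 after quantile normalization (limma adjusted p = 0.433). It rested on 44.1 reads per library in LP and 19.7 in SP.

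Migrant levels were mostly lower as deposited, as they were for genes at large. Against LP, 52 members were called, 10 higher and 42 lower, where 70.7% of all tested genes were called, 8.62% higher and 62% lower. The members' median log2 fold change was -0.40, beside -0.36 over all tested genes, so that the lower Migrant level was close to a shift of all genes. After median-ratio scaling 40 members were called, 19 higher and 21 lower, where 53.2% of all tested genes were called, 25.9% higher and 27.4% lower, and the members' median was -0.03. Under both scalings 10 members were higher and 21 lower, beside 8.62% and 27.4% of all tested genes. Another 5 were called in opposite directions, as were 3.13% of all tested genes.

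Against SP, Migrant differed in 47 members, 5 higher and 42 lower, where 82.2% of all tested genes were called, 30% higher and 52.2% lower. The members' median was -0.50, beside -0.29 over all tested genes. After scaling, 17 of 47 called members were higher and 30 lower, where 83.3% of all tested genes were called, 42.3% higher and 41% lower, with a median of -0.15 beside 0.01. Under both scalings 5 were higher and 30 lower, beside 30% and 41% of all tested genes. Another 4 were called in opposite directions, as were 1.36% of all tested genes. As deposited, the group with the highest mean FPKM was SP for 33 members, LP for 17 and Migrant for 7, and after scaling SP for 30, Migrant for 15 and LP for 12.

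**Figure D5:**
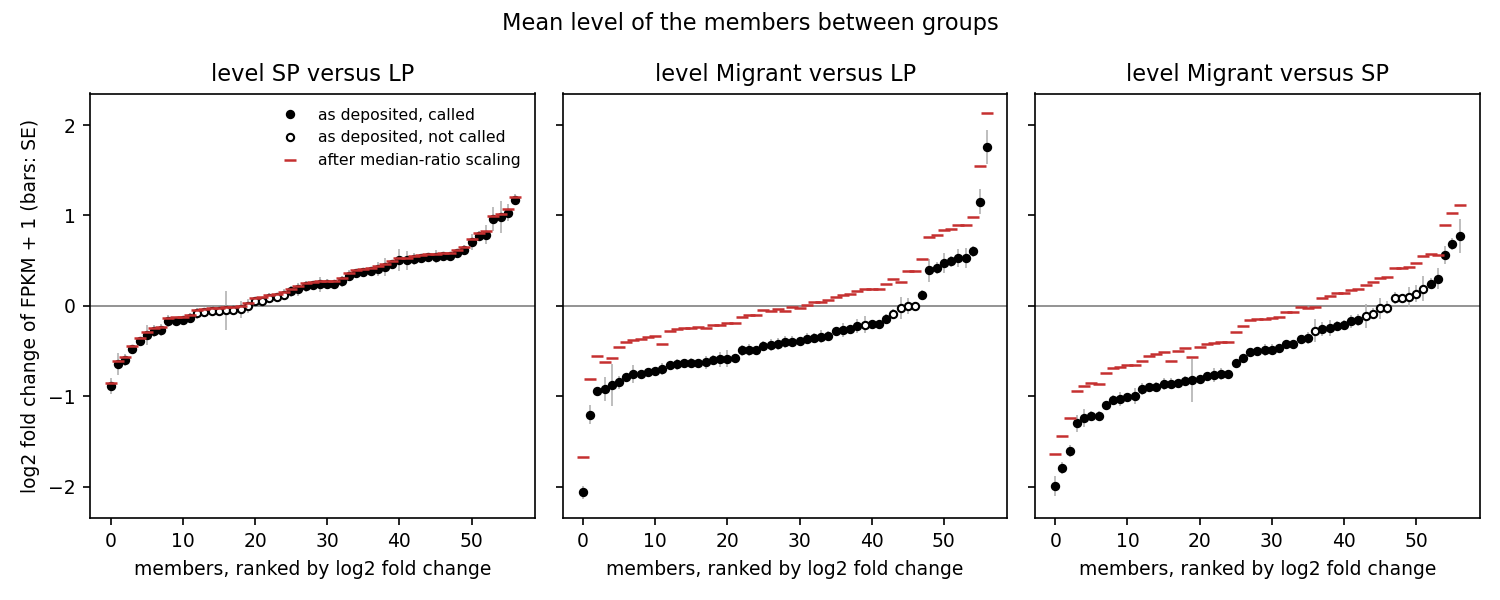
Log2 fold change of FPKM + 1 in mean level between groups (y axis, bars 1 SE) for the 57 members ranked by their value (x axis) in each comparison, filled where limma called the difference as deposited and with red dashes for the value after median-ratio scaling. The scaled values nearly match the deposited ones for SP versus LP, with medians of 0.26 and 0.23, and lie higher in both Migrant comparisons, at -0.03 against -0.40 and -0.15 against -0.50.

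The members that rose in Migrant did so under both scalings. DPOGS215439, described above for its steep course, differed by 1.75 ± 0.19 from LP on the log2 scale (SE, limma adjusted p = 9.81e-09) and of 0.77 ± 0.19 from SP (limma adjusted p = 5.64e-04), and 2.14 and 1.12 after scaling. DPOGS206382 (DPSCF300192, 68459 to 68589) had 181 to 700 FPKM in LP with a median of 396, and 541 to 1224 in Migrant with a median of 859, which gives 1.15 ± 0.14 on the log2 scale (SE, limma adjusted p = 6.19e-08). As deposited, SP was close to Migrant in this gene, with a median of 720 FPKM. After median-ratio scaling Migrant was above SP by 0.55 ± 0.16 on the log2 scale (SE, limma adjusted p = 0.0023). The model of DPOGS206382 spans 130 bases and held 32.9 reads per LP library.

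DPOGS213326 (DPSCF300341, 24127 to 29352) had similar medians in LP and SP and was higher in Migrant. The median FPKM stood at 31.8 for LP, 30.03 in SP and 50.1 in Migrant, and the lowest Migrant library, at 37.4 FPKM, lay just under the highest of LP and SP, at 37.4 and 37.5. The log2 fold change from SP was 0.68 ± 0.06 (SE, limma adjusted p = 2.90e-10). Its cycle had an amplitude of 0.16 ± 0.04 for LP, 0.13 ± 0.07 for SP and 0.27 ± 0.04 for Migrant.

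DPOGS213057 (DPSCF300016, 1106029 to 1125749) fell furthest from LP to Migrant. It had 513 to 773 FPKM in LP with a median of 662, 423 to 757 in SP with a median of 523, and 112 to 201 in Migrant with a median of 160, so that every Migrant library was below every other. The log2 fold change was -2.06 ± 0.07 from LP (SE, limma adjusted p = 1.48e-17) and -1.79 ± 0.07 from SP (limma adjusted p = 9.42e-18), and -1.67 and -1.44 after scaling. Its daily course was shallow in all groups, with amplitudes of 0.13 ± 0.06, 0.19 ± 0.06 and 0.24 ± 0.07.

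DPOGS211592 (DPSCF300084, 391296 to 391767) differed in level in all comparisons, while its differences of rhythm were not called. Medians were 608 FPKM in LP (506 to 945), 1063 in SP (620 to 1639) and 248 in Migrant (191 to 508). LP and SP overlapped, and the highest Migrant library lay just above the lowest of LP. The log2 fold change was -1.99 ± 0.11 from SP (SE, limma adjusted p = 5.71e-15) and -1.20 ± 0.11 from LP (limma adjusted p = 4.62e-10), and -1.63 and -0.81 after scaling. The fitted amplitude was 0.17 ± 0.08 for LP, 0.37 ± 0.11 for SP and 0.52 ± 0.09 for Migrant, with peaks at ZT11.3 ± 1.74, ZT8.85 ± 1.12 and ZT6.52 ± 0.68 (limma adjusted p for the difference of rhythm = 0.560 between Migrant and LP, 0.944 between SP and LP and 0.839 between Migrant and SP).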

How the data were processed

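Per the submitters' processing notes, CASAVA 1.8.2, TopHat2 and Cufflinks were used; other versions are not given in the sources used here. The authors deposited FPKM per gene with confidence limits for 48 libraries. From these, log2(FPKM + 1) was computed. Amplitudes and peaks come from a least-squares cosine and sine of 24 h in each group, with standard errors by error propagation. Levels and rhythm differences were tested with limma 3.58.1 (R 4.3.3; trend and robust settings) over 11630 genes with a mean of 0.5 FPKM or more, in 46 libraries, with Benjamini-Hochberg adjustment and a threshold of 0.05. The models were tested on simulated data. Depth came from reads recovered from the confidence limits.

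The members and lists were chosen with earlier results of these data known. Members named are those with the highest R2 (4), the largest amplitude (4), the largest rises and falls among called members alike at all 8 times (2 each), the smallest p for rhythm (2 per comparison), the highest and lowest FPKM (2 each), scaffold neighbours, and the genes nearest the limits (2 on each side). Marker and pathway lists were not run because no identifier had a name. Replicate numbers were not treated as pairs: deviations of libraries with the same number and time had median correlations between groups of 0.0185 for LP with SP, 0.0596 for LP with Migrant and 0.0418 for SP with Migrant.

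Alternatives were median-ratio scaling, quantile normalization, all 48 libraries, an added 12 h term, an R2 of 0.4, voom on recovered reads, a replicate block, and each library left out, besides a pseudocount of 0.1 and no filter or one at 2 FPKM. The limma tests were also run with the labelled sex as a covariate and with the compared groups alone. Centring on all 16 libraries and leaving out the first SP pools at ZT1 and ZT4 were added after the data were seen.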

Additional observations from a re-analysis of the deposited data

How the results depend on the processing

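The counts of members called for level stayed within 1.5 times the reported ones under every alternative run: from 42 to 46 for SP versus LP, from 51 to 53 for Migrant versus LP and from 45 to 49 for Migrant versus SP with each library left out. With a replicate block they were 46, 52 and 47, and 0, 0 and 0 for rhythm. Quantile normalization called 2 members for the rhythm difference of Migrant versus LP. No named result changed direction. The split by direction in Migrant followed the scaling. Against LP it was 10 members higher and 42 lower as deposited, beside 8.62% and 62% of all tested genes. After median-ratio scaling it was 19 and 21, beside 25.9% and 27.4%. After quantile normalization and by voom on recovered reads, more called members were higher than lower against LP. Against SP this held by voom alone. The shares of all tested genes in these 2 settings are not given here, so their splits are no result about the members.

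The median amplitude in SP was 0.250 with median-ratio scaling, 0.208 with quantile normalization and 0.177 to 0.205 with each library left out. The median Migrant peak was 4.14 h after lights-on with median-ratio scaling, 4.12 h with quantile normalization, 4.92 h with all 48 libraries and 4.05 to 4.61 h with each Migrant library left out. Membership depended more on the choices: 86 genes met the rule after median-ratio scaling (52 of them among the 57), 110 after quantile normalization (54), 42 with all 48 libraries (39), 31 at an R2 of 0.4 and 53 to 68 with each library left out. The causes were not tested. No member averaged fewer than 10 reads over the libraries of any group, and with 2 pools at each time the error of 1 member's peak was near 1 h.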

Other observations

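The Migrant libraries that the rule left out can be set beside the course fitted to the other 14. In Migrant ZT22 replicate 1 the members lay a median of 0.10 above the fitted value on the log2 scale, with the middle 50% between -0.38 and 0.66 and 31 of 57 above, while the median of all genes was -0.18. In Migrant ZT10 replicate 2 the members' median was -0.12, with 21 of 57 above the fit, and that of all genes was -0.04.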
